A study of Mus musculus with 2 samples.

Results

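MiR-191 and miR-425 are microRNAs (miRNAs) made from 2 hairpins that lie close together on mouse chromosome 9. The values described here are the 2 rows, of 1973 miRNA genes counted, whose identifiers map to Gm24083 (ENSMUSG00000092915.1) and Mir425 (ENSMUSG00000065579.1). Gm24083 is annotated on the strand opposite to Mir191, so its counts on the opposite strand were read as miR-191, and the counts of Mir425 on its own strand were read as miR-425. The rows were selected on their identifiers and, with earlier results known, on these measured counts in both libraries, so their levels are a description and carry no test. Small RNA libraries covering RNA of less than 30 nucleotides were made from kidneys of B6NCrl mouse embryos at 14.5 days of gestation, with no treatment or genetic change named. There was 1 group, embryonic kidney, of 2 biological replicates, each prepared from 2 kidneys and collected on different days. The labels name a single pup for each sample but also material of both sexes and 1 donor identifier for both, so the number of embryos behind a sample is not settled, and an SD covers the difference between these samples alone, part of which may be technical.

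A miRNA is cut from a hairpin in a longer primary transcript by Drosha, and the hairpin is then cut by Dicer to a duplex of a 5p and a 3p strand. One strand is loaded into an Argonaute protein and pairs with messenger RNAs mainly through its seed, bases 2 to 8. MiR-191 and miR-425 are generally described as products of one primary transcript at the Dalrd3 locus, are found in many tissues and in blood cells, and are both used as reference miRNAs in quantitative PCR.

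The mature sequences are shown because the pair shares a locus but not a seed. They are RefSeq sequences on GRCm38.p6, all on the plus strand of chromosome 9, written 5′ to 3′ with the seed in capitals.
mmu-miR-191-5p, chr9:108568325-108568347: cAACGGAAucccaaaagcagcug
mmu-miR-191-3p, chr9:108568367-108568388: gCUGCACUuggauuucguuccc
mmu-miR-425-5p, chr9:108568789-108568811: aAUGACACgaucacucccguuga
mmu-miR-425-3p, chr9:108568830-108568850: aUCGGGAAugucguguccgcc
mmu-miR-489-3p: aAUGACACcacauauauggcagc

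MiR-489-3p is added because it was the one other miRNA, among 1679 mature names in the RefSeq table, with the seed of miR-425-5p. The seeds of miR-191-5p, miR-191-3p and miR-425-3p were carried by no other name in that table. Such unshared seeds were common there, at 72.1% of mature names. The seeds of miR-191-5p and miR-425-3p each hold a CG step, as did 13.0% of all seeds. Both 5p strands are 23 bases long, with 12 G or C bases in miR-191-5p and 11 in miR-425-5p. Aligned from their first bases they are identical at 5 of 23 positions, and their longest common stretch is 4 bases. Mir489, the gene of miR-489-3p, had 5 counts in replicate 1 and 1 count in replicate 2, and was named after its values were seen.

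The hairpins are shown with both mature strands in capitals, to mark which part of each could give reads.
Mir191 hairpin, chr9:108568319-108568392: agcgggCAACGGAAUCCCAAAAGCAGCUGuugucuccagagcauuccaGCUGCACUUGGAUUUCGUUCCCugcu
Mir425 hairpin, chr9:108568777-108568861: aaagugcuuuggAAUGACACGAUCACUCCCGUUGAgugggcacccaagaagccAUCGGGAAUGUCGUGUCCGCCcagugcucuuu

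The Mir191 hairpin is 74 bases long and the Mir425 hairpin 85 bases. Each formed 28 base pairs in its structure of lowest predicted energy, at -35.0 kcal/mol for Mir191 and -31.7 kcal/mol for Mir425. Per 10 bases that is -4.73 and -3.73 kcal/mol, on either side of the median of -4.06 over 1005 RefSeq mouse hairpins. No mature strand of the pair shared more than 10 bases in a row with another RefSeq miRNA hairpin, on either strand. On their annotated strands, Gm24083 and Mir425 had no run of 21 bases in common with any other miRNA gene in M21. Reverse complements were not compared in that search, so for miR-191 it does not cover the sequence read. The counts are per gene, so the 5p and 3p strands cannot be told apart in them.

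The position of the pair relative to Dalrd3 depended on the annotation. Dalrd3 encodes a protein that takes part in the methylation of transfer RNA. In RefSeq on GRCm38.p6 the gene Dalrd3 runs from 108567484 to 108572773 on chromosome 9 and spans both hairpins, which begin 835 and 1293 bases after its start. In GENCODE M21 on the same assembly Dalrd3 begins at 108569886, 1024 bases beyond the end of Mir425, and holds neither hairpin. There, both hairpins lie wholly in the single exon of a transcript of the long non-coding RNA gene 4833445I07Rik (108567533 to 108569174, plus strand), and Mir191 lies in an intron of its other transcript. The name "in Dalrd3" therefore holds for the RefSeq gene and not for the M21 gene. The hairpins are 384 bases apart. Gm24083 (108568295 to 108568414, minus strand) covers the whole Mir191 hairpin and reaches 24 bases beyond it on the left and 22 on the right.

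**Figure D1:**
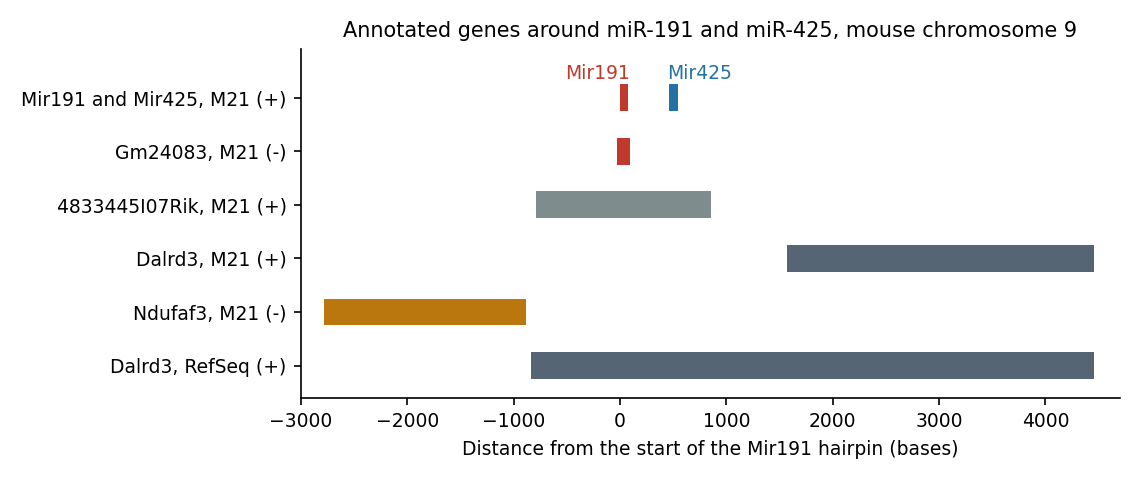
Annotated genes around the pair, drawn to scale against the distance in bases from the start of the Mir191 hairpin, with the strand of each gene in brackets. Mir191 and Mir425 are 384 bases apart; they lie inside Dalrd3 as RefSeq draws it and 1024 bases or more before Dalrd3 as GENCODE M21 draws it.

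Counts assigned to miRNA genes on both strands together came to 5305101 in replicate 1 and 3751392 in replicate 2, and CPM here is counts per 1000000 of these. With these totals 3 counts, the usual one-sided limit for a count of 0, correspond to 0.565 and 0.800 CPM. Intervals printed with both bounds are two-sided 95% exact Clopper-Pearson intervals or derived from them, and these reach somewhat above 3 counts where the count is 0. Limits and intervals cover counting error only, because reads amplified by PCR and not tagged are not independent. Reads that mapped to several places, 28.3% and 27.5% of all reads, are in no gene's count. Markers of trunk and of epithelium were present. Mir10a, a Hox cluster miRNA of the trunk, was the most abundant value at 141321 ± 1861 CPM (SD, n = 2). The 5 miR-200 family genes of epithelium together gave 26282 and 23066 CPM. Markers of the adult kidney tubule were low. Mir192 had 122 and 220 CPM and Mir194-2 69.7 and 127 CPM, both more than 1.5-fold higher in replicate 2. Mir204 had 154 and 133 CPM, and Mir194-1 had 3 and 4 counts.

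Both miRNAs were read from 1 strand only. Gm24083 had 14612 counts on the opposite strand in replicate 1 and 8782 in replicate 2, and 0 on its own strand in both. Mir425 had 12852 and 8075 counts on its own strand and 0 on the opposite strand in both. Of the reads in the Gm24083 window, 100% were therefore in the orientation of miR-191 (95% interval 99.97 to 100 in replicate 1 and 99.96 to 100 in replicate 2). By the limit of 3 counts, 0 of 12852 for Mir425 allows an opposite-strand share of up to 0.0233%, and 0 of 8075 a share of up to 0.0372%. Both miRNAs lie on the plus strand, so every read of the pair came from that strand.

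**Figure D2:**
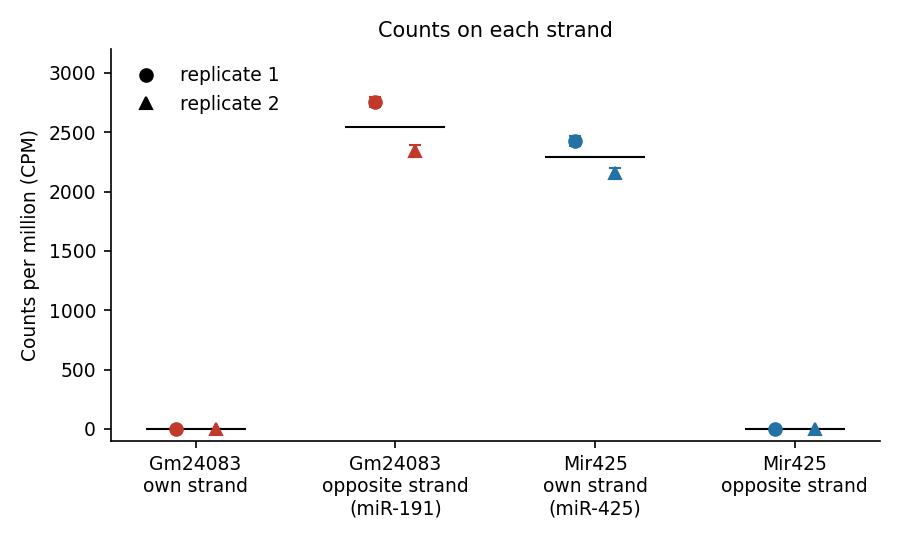
CPM on each strand of Gm24083 and Mir425, with circles for replicate 1, triangles for replicate 2, error bars for the 95% counting interval and a line at the mean. The opposite strand of Gm24083 holds 2754 and 2341 CPM and the own strand of Mir425 2423 and 2153 CPM, while the other strands are at 0.

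Gm24083 was 1 of 11 genes read mainly on the opposite strand. Mir191 has its own entry in GENCODE M21 (ENSMUSG00000105497.1) but no row in the deposited tables, which were counted on release M4. Of 355 genes with at least 10 counts in each library on both strands together, these 11 had more on the opposite strand, and each of them overlapped an M21 miRNA gene on that strand that also had no row. Gm24083 was the third of these by opposite-strand level, after Gm25301, which lies opposite Mir378a, at 7650 ± 133 CPM, and Gm25927, opposite Mirlet7e, at 4393 ± 554 CPM. Next came Gm24321, opposite Mir409, at 1368 ± 79.3 CPM, and Gm25252, opposite Mir376a, at 684 ± 40.8 CPM. Of all opposite-strand counts, Gm24083 accounted for 14.3% in replicate 1 and for 13.0% in replicate 2. Mir425 was among 344 genes read mainly on their own strand, 313 of which had no opposite-strand count in either library.

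MiR-191 and miR-425 were moderately abundant and nearly equal. In replicate 1 miR-191 stood at 2754 CPM (95% interval 2710 to 2799), and in replicate 2 at 2341 CPM (2292 to 2390), a mean of 2548 ± 292 CPM (SD, n = 2). MiR-425 reached 2423 CPM (2381 to 2465) and 2153 CPM (2106 to 2200), a mean of 2288 ± 190.9 CPM. Both were higher in replicate 1, and the ranges of the 2 miRNAs overlapped. Their joint share of counts was 0.518% in replicate 1 and 0.449% in replicate 2. Each gene gives 1 value per strand, and values with a minimum of 10 counts in both replicates are called detected. Among 359 detected values, miR-191 had rank 57 and miR-425 rank 61, above 84.1% and 83.0% of them.

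**Figure D3:**
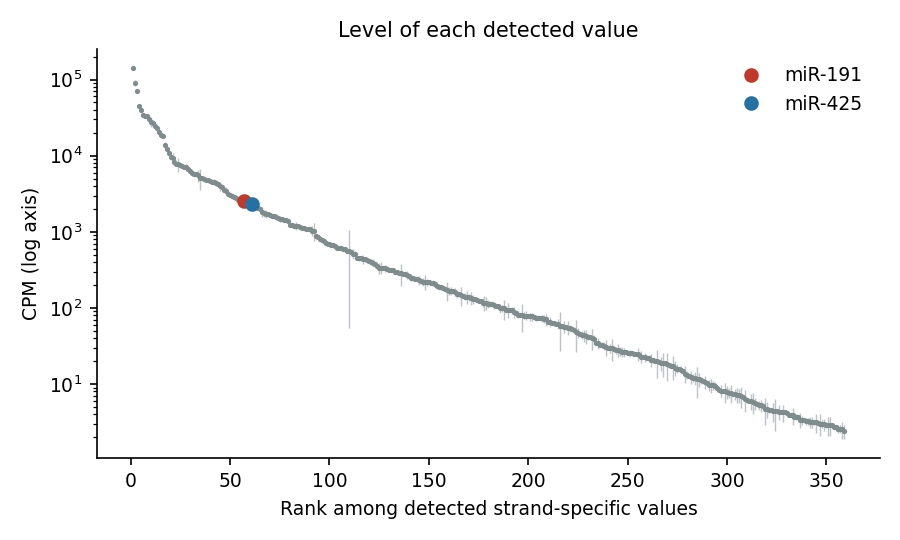
Mean CPM (log axis) of the 359 detected strand-specific values in order of rank, with a vertical line from the lower to the higher replicate. MiR-191 at rank 57 and miR-425 at rank 61 have neighbours of nearly the same level, such as Mir183 at 2445 ± 165 CPM.

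Several neighbours in this order overlapped the pair in replicate range. The replicate range of miR-191, 2341 to 2754 CPM, overlapped that of 9 other values, at ranks 52 to 61, among them miR-425. The range of miR-425, 2153 to 2423 CPM, overlapped that of 6 others, at ranks 55 to 62. The first values outside it on the lower side were Mir15b at 2093 ± 31.4 CPM and Mir361 at 2042 ± 64.7 CPM. Overlap of ranges takes no account of order within a library. Mir324, at 2799 and 2652 CPM, exceeded miR-191 in both replicates, while Mir872, at 2333 and 2977 CPM, exceeded it in replicate 2 only. Likeness of pattern was measured as the distance between log2(CPM + 1) values over the 2 libraries, which takes level and replicate change together. By this measure the value nearest to miR-191 was Mir183, of the sensory epithelium cluster, at a distance of 0.10, followed by Mir324 at 0.18, miR-425 at 0.22 and Mir149 at 0.24. For miR-425 the nearest were Mir183 at 0.14, Mir16-1 at 0.15, miR-191 at 0.22 and Mir15b at 0.23. Each of the pair thus came after 2 closer values in the order of the other, and with 2 libraries this is a description of level more than of pattern. The count of Mir16-1 is uncertain, since 21 of its bases in a row recur in another miRNA gene.

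Within each library miR-191 slightly exceeded miR-425. In replicate 1 miR-191 gave 53.2% of the pair's counts (95% interval 52.6 to 53.8), a ratio of 1.14 to miR-425 (1.11 to 1.16). In replicate 2 it gave 52.1% (51.3 to 52.9), a ratio of 1.09 (1.06 to 1.12). The difference was 0.19 and 0.12 on the scale of log2(CPM + 1), a mean of 0.15 ± 0.05 (SD, n = 2). The direction was the same in 2 of 2 libraries, and the intervals of the ratios overlapped between them. These are read counts, and a bias alike in both libraries, in ligation or amplification of one sequence, would not appear in the SD.

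Other miRNA genes that lie close together were set beside the pair to show how far such neighbours can be apart in these counts. Members with no row were read as miR-191 was, on the opposite strand of the counted gene that overlaps them: Mir497 on Mir497b and Mir24-1 on Mir3074-1. Of 22 listed pairs, 18 could be compared, 3 had a member below the minimum, and Mir203 and Mir3071 were not neighbours in M21. The median difference between higher and lower neighbour was 2.82 on the log2 scale, or 7.06-fold, with a range from 0.16 to 8.51. No mean difference among the 18 was smaller than that of miR-191 and miR-425, but those of 2 pairs were nearly the same. Mir181c exceeded Mir181d by 0.16 ± 0.09, and Mir497 exceeded Mir195a by 0.17 ± 0.25. For the latter pair the difference was -0.0038 in replicate 1, closer to 0 than that of miR-191 and miR-425, and 0.34 in replicate 2. Differences under 1 were also found for Mir15a and Mir16-1 at 0.57, Mir221 and Mir222 at 0.67, and Mir192 and Mir194-2 at 0.79. At the other end, Mir143 exceeded Mir145a, its smooth muscle partner, by 5.60 ± 0.05, and Mir322 exceeded Mir503 by 4.80 ± 0.16. In 7 of the 18 pairs a member shares 21 bases with another miRNA gene, by the annotated strand of the gene counted, and its count is uncertain. Among the other 11 the median was 2.81 and the range 0.16 to 5.60. The pair was picked with its values known, so its place at the lower end is a description and was not tested.

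**Figure D4:**
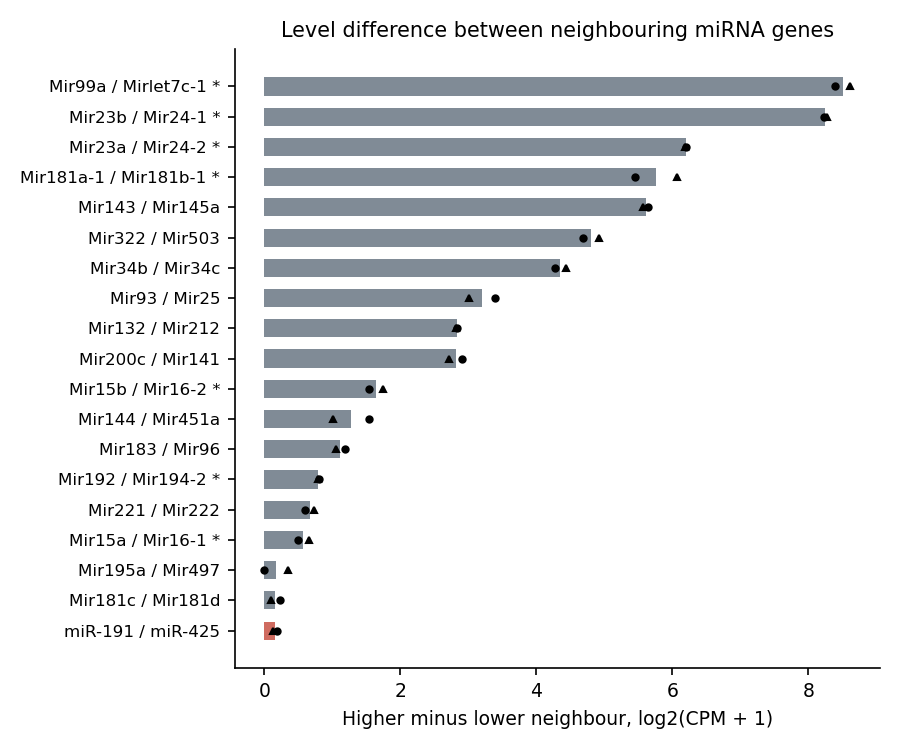
Difference between the higher and the lower of 2 neighbouring miRNA genes in log2(CPM + 1), as the mean (bar), replicate 1 (circle) and replicate 2 (triangle). An asterisk marks pairs with a member that shares 21 bases with another miRNA gene. The bars of miR-191 and miR-425 (0.15), of Mir181c and Mir181d (0.16) and of Mir195a and Mir497 (0.17) are the shortest of the 19 shown.

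Between replicates, both miRNAs were lower in replicate 2 by similar amounts. The log2 ratio of replicate 2 over replicate 1 was -0.23 for miR-191 (95% exact interval -0.27 to -0.20) and -0.17 for miR-425 (-0.21 to -0.13), or 1.18-fold and 1.13-fold higher in replicate 1. Neither reached 1.5-fold, the ratio taken as a call, which 55 of the 359 detected values did (15.3%), 27 of them lower in replicate 2 (7.52%). The interval of each ratio excludes 0 for counting error alone. With 1 library on each side it says nothing of animals. The median absolute log2 ratio over all detected values was 0.23, so miR-191 stood at the middle of that order, and 39.6% of values had a smaller ratio than miR-425. Most of the values with large ratios were low. Among the 92 values of at least 1000 CPM the median absolute ratio was 0.13, and 65 of them had a smaller ratio than miR-191 and 57 a smaller one than miR-425. The ratios of the 2 miRNAs differed from each other by 0.06, against a median gap of 0.17 within the 18 neighbouring pairs, of which 4 had a smaller gap. Among the 11 pairs in which neither member shares 21 bases with another miRNA gene, the median gap was 0.18 and 1 was smaller.

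The use of both as reference miRNAs in quantitative PCR gave a list against which their replicate ratios could be read. All 14 genes of the list, the pair included, were detected. The median absolute log2 ratio of the other 12 was 0.19, against 0.23 for all detected values and 0.13 for those of at least 1000 CPM. Of these 12, 5 were lower and 7 higher in replicate 2. Mir151 at -0.03, Mir93 at 0.05 and Mir361 at 0.06 had smaller ratios than the pair and no stretch shared with another gene. Their levels were 5050 ± 79.2, 9479 ± 213 and 2042 ± 64.7 CPM. Mir103-2 was at 0.04, with a level of 62.1 ± 1.17 CPM. Mir16-2 at -0.16, Mir16-1 at -0.19 and Mir26a-2 at -0.19 moved by about as much as the pair and in the same direction. Mir26a-1 at 0.23, Mir186 at 0.25 and Mir25 at 0.43 were higher in replicate 2. The counting intervals of Mir26a-2 (-0.46 to 0.08) and Mir26a-1 (-0.21 to 0.67) include 0, so their directions are not settled. Past 1.5-fold were 2 of the 12, or 16.7%, against 15.3% of all detected values. The 15.3% is not matched for level, and at 1000 CPM or more 3 of 92 values were past 1.5-fold. The 2 reference genes were Mir423 and Mir103-1. Mir423 had 6765 CPM in replicate 1 and 3498 in replicate 2 (-0.95), and so was among those 3. Mir103-1, at 0.71, had 19 and 22 counts and an interval from -0.24 to 1.68 that includes 0. Of the 12, 6 share 21 bases with another gene (both Mir16, both Mir26a and both Mir103 genes), so their counts are uncertain. The coefficient of variation of miR-191 was 11.5% and that of miR-425 8.35%.

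**Figure D5:**
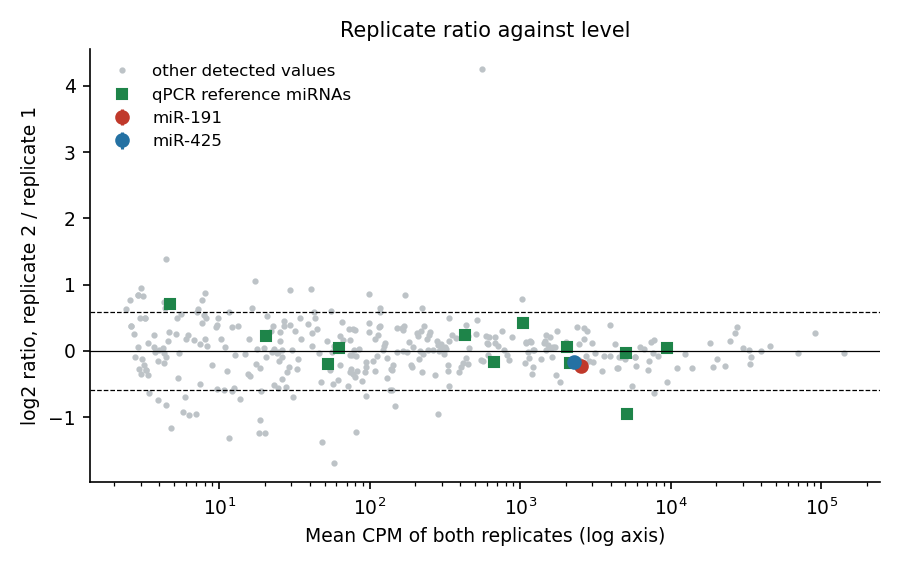
Log2 ratio of replicate 2 over replicate 1 against mean CPM (log axis) for the 359 detected values, with dashed lines at 1.5-fold and bars for the counting interval of the pair. MiR-191 (-0.23) and miR-425 (-0.17) lie below 0 and inside the lines. Outside the lines lie 2 of the 12 other reference miRNAs, Mir423 and Mir103-1. So do 15.3% of all values, but 3 of the 92 values of at least 1000 CPM.

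Of 26 listed miRNAs known to lie inside protein-coding genes, more were higher than lower in replicate 2. The list was chosen with earlier results known and is not complete, so the split describes its genes alone. The pair, inside Dalrd3 in RefSeq but not in M21, was lower, as were some of the listed genes. All 26 listed genes were detected, with Mir378a, which has no row, read on the opposite strand of Gm25301. Of these, 18 were higher and 8 lower in replicate 2, against 188 higher and 171 lower among all detected values. Their median log2 ratio was 0.10, against 0.02 over all detected values. Mir93, Mir106b and Mir25 share the host Mcm7, and Mir15b and Mir16-2 the host Smc4, so the listed genes are not independent. Past 1.5-fold was 1 of the 26, or 3.85%, against 15.3% of all detected values. It was Mir103-1, with 19 and 22 counts and an interval of the log2 ratio from -0.24 to 1.68 that includes 0. The 15.3% is not matched for level. Most of the 26 had at least 1000 CPM, and among all detected values of that level 3 of 92 were past 1.5-fold. In 4 of the 26, Mir103-1, Mir107, Mir16-2 and Mir26a-1, 21 bases recur in another miRNA gene and the count is uncertain. For Mir378a the annotated strand of Gm25301 was searched, not the strand read. The levels of the 6 most abundant, Mir335 of Mest at 90419 ± 12278, Mir126a of Egfl7 at 45604 ± 1834, Mir26b of Ctdsp1 at 26587 ± 3467, Mir93 and Mir106b of Mcm7 at 9479 ± 213 and 7739 ± 625, and Mir378a of Ppargc1b at 7650 ± 133 CPM, were all above those of the pair.

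Markers of blood cells, in which the pair is also known, were all below the pair in level. The erythroid genes Mir144, Mir451a and Mir486 gave 158 CPM together in replicate 1 but 76.2 CPM in replicate 2, and 3 of 3 were past 1.5-fold lower in replicate 2, the direction of the pair, against 7.52% of all detected values. For Mir486 this rests on 39 and 17 counts, with an interval of the log2 ratio from -1.61 to 0.16 that includes 0, and 21 of its bases recur in another miRNA gene. Mir144 and Mir451a are neighbours 99 bases apart, so the 3 erythroid genes are not independent. Mir451a led them at 80.4 ± 45.5 CPM, with 597 and 181 counts. The 7 leukocyte genes had summed levels of 1039 and 1028 CPM in the 2 replicates. Mir155 was at 329 ± 35.0 CPM, Mir142, read on the opposite strand of Mir142b, at 312 ± 7.50, and Mir223 at 262 ± 2.08, at ranks 129, 132 and 140 of 359 and so in the upper part of the detected values. Mir146 stood at 116 ± 33.2 and Mir150 at 12.8 ± 0.338 CPM. Of these, Mir146 was past 1.5-fold, at 0.59, and higher in replicate 2, and Mir142b on its own strand and Mir146b were below the minimum. Mir122, the main miRNA of hepatocytes, had 55.2 CPM in replicate 1 and 1055 CPM in replicate 2, against the direction of the pair. The part of blood cells or of hepatocytes in the levels of the pair was not tested, and in whole tissue fewer cells of a type and less RNA per cell cannot be told apart.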

How the data were processed

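Small RNA of 2 embryonic kidney samples was measured. The authors deposited raw read counts per miRNA gene for each library, without normalization, for both strands, the strand of the gene and the opposite strand. Per the deposited file descriptions, reads were aligned to mm10 and genes taken from GENCODE M4; the aligner and counter were not given in the sources used here. In every gene row the 2 stranded columns added up to the unstranded one. Tallies that name no gene were left out of totals: they were 16.8% and 14.1% of reads for unmapped reads, 28.3% and 27.5% for multimapping reads, and 4.06% and 2.91% for reads on no feature.

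CPM used the counts of both strands as total, since miR-191 is read on the opposite strand. Listed genes with no row were read likewise, on the opposite strand of the counted gene overlapping them, a step added after values were seen. Log values used a pseudocount of 1 CPM. Symbols and positions came from GENCODE M21 (1894 of 1973 identifiers matched) and RefSeq GRCm38.p6, the same assembly as mm10; both member genes matched. Hairpins were folded with RNAfold 2.7.2. There is no contrast between groups, so no p-value was computed. Intervals are exact and were tested on simulated independent Poisson and binomial counts, which does not cover reads made dependent by PCR. The members and lists were chosen with earlier results of these data known. The names given are the members, the 4 nearest values to each, the 6 most abundant detected genes of each list, all reference genes, and the 5 leading opposite-strand genes. The neighbouring pairs singled out by their difference and the minimum of 1000 CPM were chosen after values were seen. So was the naming of Mir489, Mir10a, Mir122, the miR-200 genes, the adult tubule genes, Mir142b and Mir146b. Alternatives were other totals, strands, pseudocounts, minimums, edgeR 4.0.16 TMM factors and DESeq2 1.42.0 size factors under R 4.3.3, and each replicate alone. Calculations ran in Python 3.11.15 with scipy 1.17.1 and numpy 2.4.6.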

Additional observations from a re-analysis of the deposited data

How the results depend on the processing

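Of 33 alternative values, 29 stayed within the spread or interval of the value reported, or, for counts, within 1.5 times of it. Part of this was fixed in advance. With 2 replicates, each level or difference from 1 replicate alone must lie within the SD of their mean. Both strands together, and the strand shares of each replicate, could not move because the other strand of each gene had 0 counts. Per 1000000 reads of the library, unmapped and multimapping reads included, the levels were 1348 for miR-191 and 1212 for miR-425, a change fixed by the larger total. The number of values past 1.5-fold between replicates was 21 of 245 with a minimum of 100 counts and 181 of 608 with no minimum beyond 1 count, against 55 of 359. With a minimum of 5 it was 74 of 406. Leaving out 1 replicate gave 2341 to 2754 CPM for miR-191, 2153 to 2423 CPM for miR-425 and a difference of 0.12 to 0.19. With TMM factors the replicate ratios were -0.22 and -0.16, and with DESeq2 size factors -0.26 and -0.20. No paired analysis was possible because there is 1 group. Counting error was small beside the spread between replicates, so the number of samples and not depth limits the levels.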
